A study of Mus musculus with 2 samples.

Results

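TAM_C1q is the name the authors gave to one cluster of tumour-associated macrophages in their single-cell map of CD45+ cells, the leukocytes, from subcutaneous YUMM3.3 tumours. Its members were taken by that name from the deposited cell table. They numbered 2018 of 7815 cells, 2001 in the RTT and 17 in the NTT library. YUMM3.3 is a mouse melanoma line with Braf V600E and loss of Cdkn2a. NTT tumours grew from the line that had never met targeted therapy, RTT tumours from its derivative made resistant to targeted therapy, both in C57BL/6 mice without treatment of the mouse stated in the labels, and were taken on day 12 after injection by the record of the series, where the methods of the paper give a different day for single-cell work. Each group is 1 tumour and 1 library, so line, mouse, sort and library cannot be told apart, no test was possible and no p-value is given. The cells were grouped by the same transcripts that are compared here, so a population against the rest is a description.

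C1q is the recognition molecule of the classical complement pathway. It is assembled from A, B and C chains, binds immune complexes and dying cells, and is made by macrophages in tissues rather than by the liver. Macrophages rich in C1q usually carry other genes for clearing dying cells, among them apolipoprotein E, the scavenger receptors and the lysosomal proteases, and are found in many tumours. They arise from monocytes or from resident cells, and as monocytes mature they lose transcripts such as Ccr2 and Plac8.

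The RTT library held 4840 cells with a median of 8335.5 unique molecular identifiers (UMIs, each standing for 1 captured transcript), and the NTT library 2975 cells with a median of 5398. TAM_C1q cells were 41.3% of RTT cells (exact 95% interval 39.95 to 42.7%) and 0.571% of NTT cells (0.333 to 0.913%). All intervals here cover counting error only and say nothing of the difference between mice. RTT TAM_C1q cells had a median of 8596 UMIs and 2781 detected genes, with 1 cell at or below 1000 genes. The 17 NTT cells had a median of 6585 UMIs and 2362 genes. The libraries shared 7 cell barcodes, and 3 of these were RTT TAM_C1q cells. Leaving all shared barcodes out left the count of genes at least 2-fold higher in TAM_C1q than in other RTT cells at 83.

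The 5 markers of the label are described first. The label was given on clusters of these same transcripts, so high marker levels here do not check it. Levels are given as CPM, the UMIs of a gene summed over the cells of a population and scaled by all UMIs of those cells to a total of 1e6. C1qa, the A chain, stood at 10216 CPM in RTT TAM_C1q cells, against 7820 in TAM_cycling, 6375 in Infl_Mono, 4641 in TAM_Spp1, 3765 in Monocyte_1 and 833 in Ctsk_Macro cells. Apoe, the lipid carrier apolipoprotein E, was at 17993 CPM, ahead of Infl_Mono at 12389 and TAM_cycling at 11437. Fcrls, a scavenger-type Fc receptor-like gene known from microglia, was at 3792 CPM in TAM_C1q, 2847 in TAM_cycling, 2112 in Infl_Mono and 698 in TAM_Spp1 cells. Ms4a7, a membrane gene of mature macrophages, was at 3826 CPM and next highest in Infl_Mono at 2870. Pmp22, best known as a myelin protein, was a low transcript at 48.3 CPM (45.1 to 51.5), with TAM_cycling at 28.6 and TAM_Spp1 at 3.44. All 5 markers were thus highest in TAM_C1q among RTT populations of at least 50 cells, and none of them was absent from TAM_cycling. Fcrls and Ms4a7 belong to gene families, and whether reads shared with related genes changed their values was not tested.

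**Figure D1:**
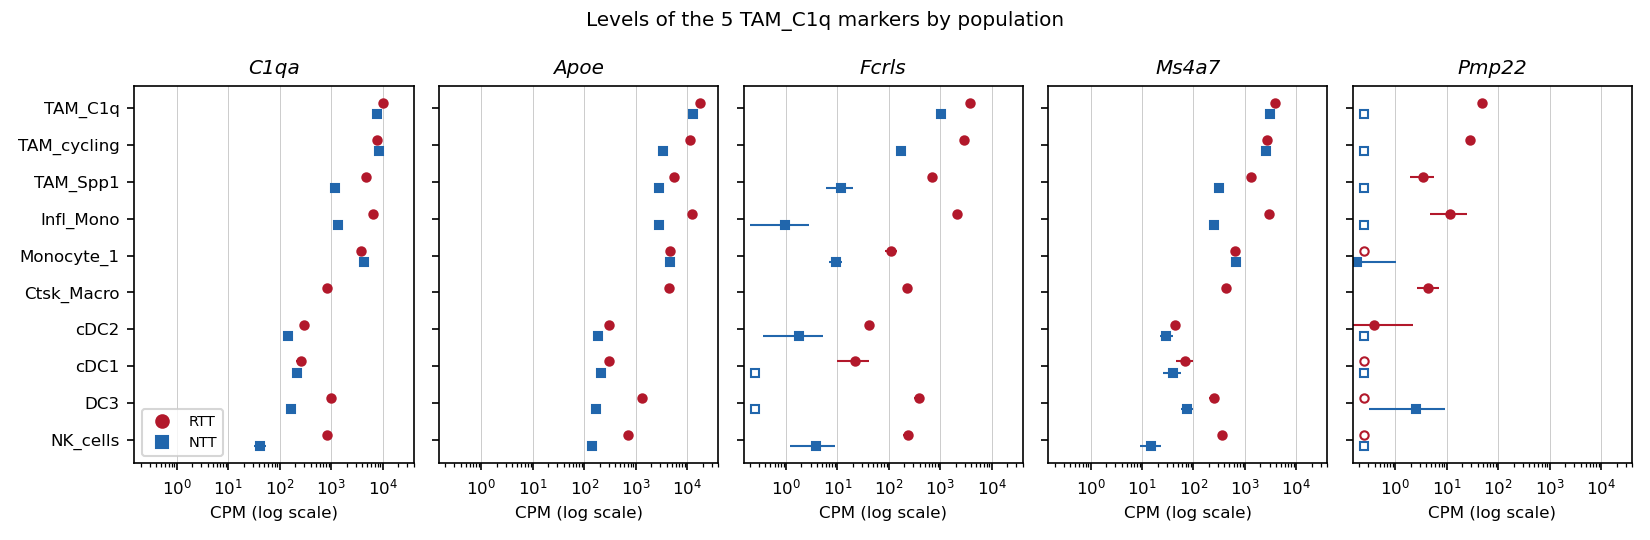
Levels of the 5 markers in CPM (log axis) in the 10 populations with at least 50 RTT cells, RTT as red circles and NTT as blue squares. NTT TAM_C1q is 17 cells. NTT TAM_H2Ab1, Macro and Neutro, with fewer than 50 RTT cells, are not drawn. Exact Poisson 95% intervals are mostly smaller than the symbols. Open symbols are populations with 0 UMIs, drawn at the left edge. RTT TAM_C1q holds the highest RTT value in every panel, from 17993 CPM for Apoe to 48.3 for Pmp22.

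In RTT TAM_C1q cells cut down at random to 2000 UMIs each, 99.5% of 1995 cells held a C1qa UMI, 99.6% an Apoe UMI, 97.8% an Fcrls UMI and 98.8% an Ms4a7 UMI. NK cells of the same library, which should lack these transcripts, held them in 24.4%, 36.6%, 19.5% and 12.2% of 41 cells. With those NK shares taken as background, all 4 markers lay far above it. Most TAM_cycling cells held them too, in 98.1%, 95.8%, 87.9% and 89.3% of 947 cells. Pmp22 was found in 7.07% of the thinned TAM_C1q cells (5.98 to 8.28%) and in 4.86% of TAM_cycling cells, against 0.427% of 703 TAM_Spp1 cells (upper bound 1.24%) and 0.248% of 404 cDC2 cells (1.37%). In NK cells it was found in 0 of 41, which bounds the share only at 8.60%.

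The genes of the chains lie side by side on mouse chromosome 4 (RefSeq, GRCm38.p6), C1qb at 136880126 to 136886200, C1qc at 136889801 to 136892936 and C1qa at 136895916 to 136898844. C1qb stood at 12834 CPM and C1qc at 6401 CPM in RTT TAM_C1q cells. UMIs of the chains kept similar ratios across macrophages, with 1.26 C1qb and 0.627 C1qc UMIs per C1qa UMI in TAM_C1q, 1.30 and 0.612 in TAM_cycling and 1.47 and 0.631 in TAM_Spp1 cells. Since these genes are the label's own, the RefSeq promoters of the pair with an entry are shown, both on the minus strand. They run from 250 bases before to 50 bases after the start. For C1qb the start is the gene end given above, while for C1qc the start used lies inside that end. Capitals mark GAGGAA, a core bound by PU.1, the factor of the myeloid lineage, and TGCTGA, a core of the sites of Maf factors, which act in macrophages. Both strands were searched, and a match on the other strand is in capitals as its reverse complement.
C1qb, chr4:136886151-136886450, minus strand: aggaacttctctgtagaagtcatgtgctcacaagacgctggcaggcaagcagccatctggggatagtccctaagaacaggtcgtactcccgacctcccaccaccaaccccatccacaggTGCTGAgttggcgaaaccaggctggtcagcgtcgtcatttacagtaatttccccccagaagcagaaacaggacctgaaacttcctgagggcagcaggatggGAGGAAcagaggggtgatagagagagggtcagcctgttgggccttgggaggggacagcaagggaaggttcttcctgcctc
C1qc, chr4:136892865-136893164, minus strand: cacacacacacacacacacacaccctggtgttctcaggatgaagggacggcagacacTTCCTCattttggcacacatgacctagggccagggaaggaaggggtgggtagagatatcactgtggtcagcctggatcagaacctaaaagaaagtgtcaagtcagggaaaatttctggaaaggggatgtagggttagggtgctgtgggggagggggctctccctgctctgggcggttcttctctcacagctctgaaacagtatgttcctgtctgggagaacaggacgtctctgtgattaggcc
Each of these promoters held 1 GAGGAA, a match found in 28.3% of 27025 RefSeq promoters of that length. C1qb also held 1 TGCTGA, found in 19.1% of them. A match is a description of the letters and not a site shown to be bound. Maf itself was at 787 CPM in RTT TAM_C1q cells and at 380 CPM in other RTT cells.

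Which genes were highest in TAM_C1q rather than in any other population was asked next. In RTT TAM_C1q cells 5585 genes stood at 20 CPM or more. Of these, 602 (10.8%) were highest there among the 10 RTT populations of at least 50 cells, which is near an even share. The level was asked of TAM_C1q alone, so a gene could enter through the population where it is high. For 292 of the 602 the interval of the ratio to the next population lay above 0, and 1 gene was at least 2-fold above it. That gene was Cd163, the receptor that takes up haemoglobin bound to haptoglobin, with a log2 ratio of 2.07 over TAM_cycling. Cd163 was nonetheless scarce, at 26.1 CPM with 3.2% of thinned cells positive, and TAM_C1q cells held 80% of the library's Cd163 UMIs while holding 40.8% of all UMIs. TAM_cycling was the next population for 12 of the 15 genes with the largest ratios.

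After Cd163 the ratios were small. C4b, complement component 4, Npl, a lyase that breaks down sialic acid, and Folr2, folate receptor beta of resident macrophages, were 0.96, 0.96 and 0.95 above the next population on the log2 scale. Rcn3, Cbr2, Bhlhe41 and the chemokine gene Ccl8 followed at 0.92, 0.91, 0.87 and 0.86. Cela1, Igf1, Tha1, the protease gene Ctsd, the neonatal Fc receptor gene Fcgrt, the cholesterol exporter gene Abca1 and Vps8 completed the 15, from 0.85 down to 0.76. Folr2, for example, was at 383 CPM in TAM_C1q, 198 in TAM_cycling, 188 in Infl_Mono and 31.2 in TAM_Spp1 cells. TAM_C1q cells held 69.0% of Folr2 and 70.4% of Npl UMIs in the library.

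This order depended on which populations were counted. When RTT populations of 20 to 49 cells were let in, only 3 of the 15 genes and 2 of the 5 markers were still highest in TAM_C1q, and the number of genes highest there fell to 214. The 26 RTT cells named Macro held Cbr2 at 951 CPM, Ccl8 at 3802, Folr2 at 581, Cd163 at 153 and Igf1 at 135, all above TAM_C1q. In the 36 RTT cells named TAM_H2Ab1, C1qa was at 10393 CPM against 10216 in TAM_C1q, and Ms4a7 at 4193 against 3826. Fcrls was lower in these cells, at 1107 against 3792 CPM. The 29 RTT cells named Neutro held C1qa at 7699 and Fcrls at 3257 CPM. The summed neutrophil markers of those Neutro cells were 19755 CPM, against 85276 in NTT Neutro cells, where Fcrls was at 2.21 CPM. Whether cells of another type lie under the Neutro name in the RTT library was not tested.

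Markers of other lineages were near 0 in RTT TAM_C1q cells. The 10 T and NK cell markers summed to 4.72 CPM with 1 of 10 at 0, against 11397 in NK cells, and the 6 dendritic markers to 1.70 CPM with none at 0, against 2677 in DC3 cells. The B and plasma cell list summed to 18.0 CPM, the neutrophil list to 48.0, the mast cell list to 0.768, the fibroblast list to 2.58 and the endothelial list to 5.76. The osteoclast list, at 177 CPM, was the highest of these, and it stood at 49238 CPM in Ctsk_Macro cells.

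Set against all 2839 other RTT cells, 5831 genes passed a mean level of 20 CPM. Of these 83 were at least 2-fold higher in TAM_C1q (1.42% of genes tested) and 287 at least 2-fold lower (4.92%), and the median over all genes was a log2 ratio of -0.03. Under TMM scaling, which moved all ratios up by 0.11, the counts were 125 and 255. The highest ratios were those of Npl, at 250 against 72.3 CPM (log2 ratio 1.79, 1.71 to 1.87), C4b at 102 against 29.7 (1.78, 1.66 to 1.91), Cd38, an enzyme that consumes NAD, at 131 against 39.1 (1.74) and Cbr2, a carbonyl reductase, at 345 against 104 CPM (1.73). Bhlhe41, a transcriptional repressor of resident macrophages, had a ratio of 1.73, Folr2 1.69, Cela1 1.66, the bridging ligand gene Gas6 1.58, Pmp22 1.55 and the adhesion gene Vcam1 1.51. The lowest ratios belonged to genes that name other populations. They were Esco2, Pbk and Nusap1 of dividing cells, at -9.57, -6.39 and -6.34, Ctsk, Atp6v0d2, Mmp9 and Slc9b2 of osteoclast-type cells, at -7.16, -6.98, -6.79 and -6.52, Gzmc of cytotoxic cells, at -7.49, Cd209a of dendritic cells, at -7.41, and Mcpt4 of mast cells, at -7.38. Esco2 had 1 UMI in all TAM_C1q cells, and Mcpt4 turned to 3.33 when each other population of at least 50 cells, a set without mast cells, was given equal weight.

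Complement genes and receptors for uptake stood above the rest. Of 12 complement genes past the level, 4 were at least 2-fold higher and 0 lower, with a median log2 ratio of 0.85. The 4 were C4b, C1qa at 1.03, C1qc at 1.06 and Cd93, a lectin-type receptor first described for C1q, at 1.03. C1qa and C1qc are the label's own genes, so their place here is not independent of it. This limit holds in every comparison, and also for Apoe, Fcrls and Ms4a7 in the lists that hold them. C3, the central component that all complement pathways cleave, was below the level and at -1.13. Of 16 uptake receptors and ligands, 5 were 2-fold higher and 2 lower, with a median of 0.72. The 5 were Folr2, Gas6, Stab1, a scavenger receptor, at 1.26, Mrc1, the mannose receptor, at 1.10, and Mertk, the receptor of Gas6 on phagocytes, at 1.04. Mfge8, a bridging protein for apoptotic cells, and the lectin gene Clec10a were the lower members, at -2.37 and -2.08. Mrc1 was found in 81.6% of thinned cells against 12.2% of NK cells, and Folr2 in 42.2% against 0%. In TAM_cycling cells the shares were 74.9% for Mrc1 and 24.7% for Folr2.

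Lysosomal genes moved less. Of 26 lysosomal genes, 23 were above and 3 below the other RTT cells, with a median of 0.57, and 4 reached 2-fold, the protease genes Ctsb at 1.14, Lgmn at 1.09 and Ctsd at 1.05 and the membrane gene Cd63 at 1.04. The lower member past 2-fold was Atp6v0d2, a proton pump subunit of osteoclasts, and Atp6v1a, another pump subunit at -0.10, turned positive under TMM scaling. All 7 Fc receptor genes were above, with a median of 0.94. Fcgrt, which rescues IgG from degradation, reached 1.22, at 583 against 251 CPM. Of 19 lipid genes 4 were 2-fold higher and 2 lower, with a median of 0.39. Abca1 stood at 1.36, Fabp5, a fatty acid carrier, at 1.26, Apoe at 1.23 and Ch25h at 1.01, while the lipase gene Lpl was at -3.33 and the tetraspanin gene Cd9 at -1.498.

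The chemokine list split. Ccl8, Ccl12, Ccl7 and Ccl2, neighbours in sequence that draw monocytes through Ccr2 and related receptors, were at 1.38, 1.14, 1.11 and 1.01, with Ccl12 at 2990 against 1358 CPM. Cxcl2, which draws neutrophils, was at -2.67, and the interferon-driven Cxcl10 and Cxcl9, which draw T cells, were at -1.84 and -1.72. The list had 15 genes past the level and a median of 0.48. Of 18 interferon-stimulated genes 0 were 2-fold higher and 6 lower, with a median of -0.33, led by Ifit3 at -2.47 and Ifit1 at -2.38. In the prostaglandin list, Hpgds, the synthase of prostaglandin D2 in leukocytes, was at 390 against 168 CPM (1.22) and Ptgs2, the inducible cyclooxygenase, at 8.06 against 44.8 CPM (-2.47).

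Class II genes, which present antigen to CD4+ T cells, had the lowest median after that of the cell cycle among the lists that do not mark another lineage. Of 11 class II genes past the level, 8 were at least 2-fold lower and 0 higher, with a median of -2.20. H2-Aa was at 1291 against 5960 CPM (-2.21), H2-Ab1 at -2.20, Cd74, the chaperone of class II, at -1.89 and Ciita, the factor that switches class II genes on, at -2.59. The 10 class I genes had a median of -0.05 and 0 past 2-fold in either direction, a value inside the shift that scaling makes. Monocyte genes were mostly below as well, with 7 of 13 at least 2-fold lower and 1 higher and a median of -1.38. Plac8 was at -3.92, Chil3 at -3.35, Vcan at -3.24 and S100a4 at -3.22. F13a1, coagulation factor XIII, was the higher member, at 1.18.

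Other lists were mixed. Of 18 transcription factor genes 3 were higher, Bhlhe41, Klf2 at 1.19 and Maf at 1.05, and Bhlhe40 was lower at -2.09. Of 13 genes of resident macrophages 4 were higher, Fcrls, Folr2, P2ry13 at 1.12 and Gpr34 at 1.07, and Sparc was lower at -2.92, with a median of 0.84. Il4ra, the receptor chain for interleukin-4 and interleukin-13, was the single receptor gene of 15 past 2-fold, at 1.27. Of 10 iron and heme genes Hmox1, which degrades heme, was higher at 1.29 and Tfrc, the transferrin receptor, lower at -1.64. The 13 genes of glycolysis and hypoxia had 0 past 2-fold. Arg1, the arginase, was the single member of 10 cytokine and regulator genes past 2-fold, at 1.01. It was not particular to TAM_C1q, being found in 24.5% of its thinned cells and in 35.0% of thinned TAM_Spp1 cells. Of 7 Ms4a genes Ms4a7 and Ms4a14 were higher and Ms4a4c lower. The 14 early stress genes that tissue dissociation can induce had 0 higher and 2 lower.

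The study's own list of TAM_C1q genes had 13 of 20 members at least 2-fold higher and a median of 1.06. It was drawn on a map that includes these cells and is not independent of them.

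**Figure D2:**
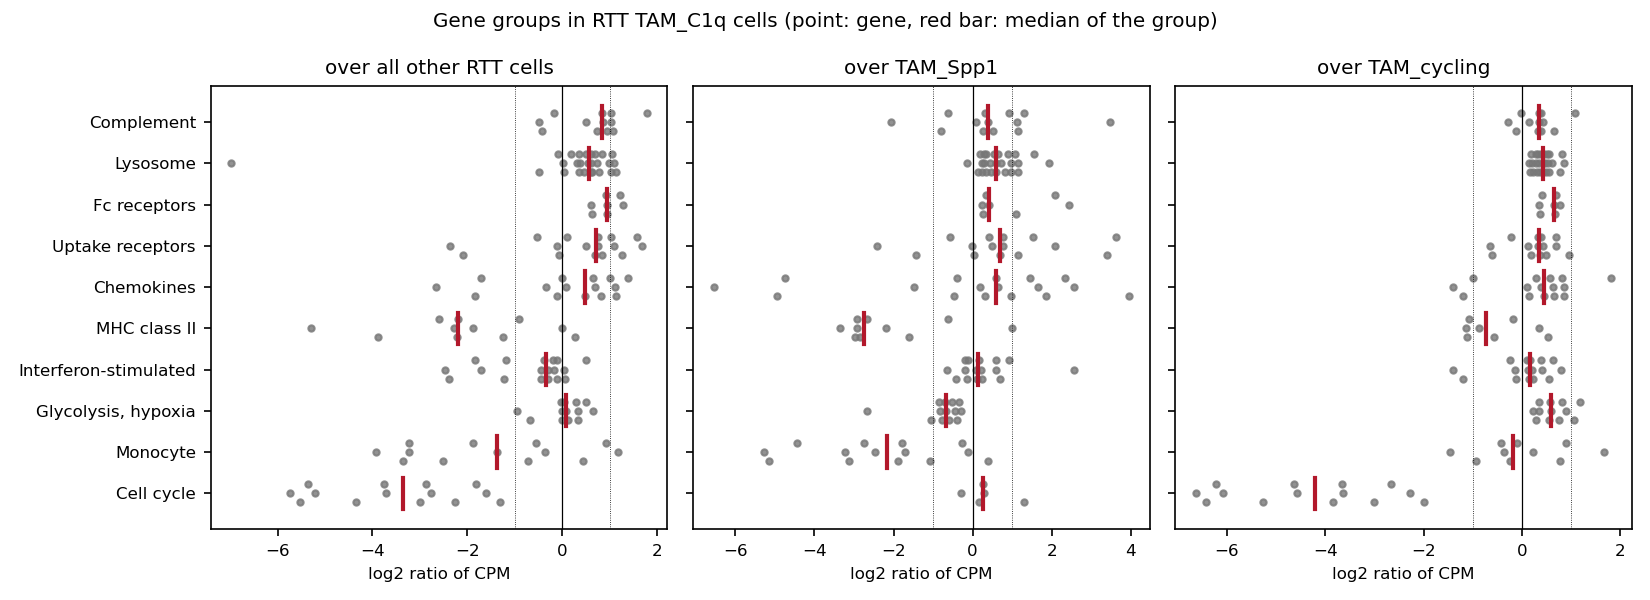
Log2 ratios of CPM in RTT TAM_C1q cells over all other RTT cells, over TAM_Spp1 and over TAM_cycling cells, with 1 grey point per gene past the level and a red bar at the median of each gene group; dotted lines mark 2-fold. The class II medians lie left of 0 in all 3 panels (-2.20, -2.76 and -0.72) and the lysosomal medians right of 0 (0.57, 0.58 and 0.42).

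TAM_Spp1 is another of the macrophage populations, with 719 RTT cells. Of 5527 genes, 184 were at least 2-fold higher (3.33%) and 180 lower (3.26%) in TAM_C1q, with a median of 0.08. Spp1, osteopontin, the gene of that name, was at nearly the same level in both in this library, at 3977 CPM in TAM_C1q and 3982 CPM in TAM_Spp1 cells. The highest ratios were those of Bhlhe41 at 4.25, Ccl8 at 3.95 (458 against 29.6 CPM), Pmp22 at 3.81, Folr2 at 3.62 and C4b at 3.48. The lowest were those of Cxcl1, a neutrophil chemokine, at -6.55, Slpi, a protease inhibitor, at -6.51, Dmkn at -6.22, Cd209a at -6.20 and F10, coagulation factor X, at -5.84.

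By role, the ligand Gas6 was at 236 CPM in TAM_C1q and 22.5 in TAM_Spp1 cells (3.39, 3.11 to 3.70) and its receptor gene Mertk at 1.15. Stab1 was at 2.08, Mrc1 at 1.52, Fcgrt at 2.08, Cd63 at 1.93 and Ctsb at 1.54. Of 15 uptake genes 5 were 2-fold higher and 2 lower (median 0.70), of 12 genes of resident macrophages 6 higher and 0 lower (0.95), and of 25 lysosomal genes 5 higher and 0 lower (0.58). Of 7 Fc receptor genes 3 were higher and 0 lower (0.41). Of 13 complement genes, the 4 higher were C4b, Cd93, C1qa and C1qc, and C3 was lower at -2.07, with a median of 0.38.

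Monocyte and class II genes were mostly lower, and so were the following genes of inflammation. Il1b, interleukin-1 beta, was at 962 CPM in TAM_C1q and 2882 in TAM_Spp1 cells (-1.58), Ptgs2 at 8.06 against 142 CPM (-4.14) and Cxcl2 at 54.9 against 1486 CPM (-4.76). Of 14 monocyte genes 11 were at least 2-fold lower and 0 higher, with a median of -2.17. Ccr2, the receptor that brings monocytes into tissue, was at 462 against 1597 CPM (-1.79), Vcan at -5.16 and Chil3 at -5.28. Of 10 class II genes 8 were lower, with a median of -2.76 and H2-Aa at 1291 against 9756 CPM. All 13 genes of glycolysis and hypoxia were below 0, 2 of them 2-fold, with a median of -0.67, and Hilpda, a hypoxia-induced lipid droplet gene, was at 47.9 against 303 CPM (-2.66). Chemokine genes were split again, with 6 higher and 4 lower of 17, Ccl12 at 2.34 among the first and Ccl24 at -4.95 among the second. Of 10 cytokine and regulator genes 0 were higher and 3 lower (median -0.59). Of 16 interferon-stimulated genes 1 was higher, Cxcl9 at 2.57, and 0 lower (0.13). Cxcl9 came from few cells, 1.85% of thinned TAM_C1q and 1.14% of thinned TAM_Spp1 cells. Of its UMIs in TAM_C1q, 1 cell held 23.7%. All 14 early stress genes were below 0, 7 of them 2-fold, with a median of -0.998, and the part of dissociation in the differences between these populations was not tested.

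TAM_cycling, with 947 RTT cells, had the levels most like those of TAM_C1q. The correlation of log2 levels over 5822 genes, given as a description, was 0.945 with TAM_cycling, 0.942 with TAM_Spp1 and 0.901 with Infl_Mono cells, all of 1 library. Of 5829 genes, 17 were at least 2-fold higher in TAM_C1q (0.292%) and 305 lower (5.23%), with a median of -0.02. All 14 cell cycle genes past the level were 2-fold lower, with a median of -4.21. Esco2, which builds sister chromatid cohesion, was at -10.48, Aspm at -7.56, Pbk at -7.34, Nusap1 at -7.23 and Kif4 at -6.9997. The 5 highest were Arg1, at 442 against 103 CPM (2.10, 2.02 to 2.19), Ccl5 at 1.82, Thbs1, thrombospondin 1, at 1.67, Slfn5 at 1.41 and the histone gene Hist3h2a at 1.36. All 12 genes of glycolysis and hypoxia were above 0, with a median of 0.59, Bnip3 at 1.19 and Hilpda at 1.07. All 25 lysosomal genes were above 0 as well, with a median of 0.42, and 3 of 8 class II genes were 2-fold lower, with a median of -0.72. In thinned cells 4.36% of TAM_C1q cells (3.51 to 5.35%) held a UMI of Mki67 or Top2a, genes of dividing cells, against 55.5% of TAM_cycling, 3.13% of TAM_Spp1 and 29.3% of NK cells. Without thinning the TAM_C1q share was 14.8%.

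Ctsk_Macro cells, 280 in the RTT library, carry genes of osteoclasts, and of the 3 macrophage populations compared they gave the most genes past 2-fold. Of 5768 genes, 779 were at least 2-fold higher in TAM_C1q (13.5%) and 681 lower (11.8%), with a median of -0.02. Ctsk, the collagen-degrading cathepsin K, was at 17.5 against 16143 CPM (-9.85). Oscar, Atp6v0d2, Fabp7 and Mst1r followed at -9.83, -9.67, -9.67 and -9.64, where Fabp7 and Mst1r had 1 UMI each in TAM_C1q cells. Bhlhe41 was highest at 4.89, then Ccl5 at 4.75, Cd38 at 4.73, Rnase4, a secreted ribonuclease, at 4.56 and Cbr2 at 4.52. Of 12 complement genes 9 were higher and 1 lower (median 3.06), all 7 Fc receptor genes were higher (3.56) and 13 of 15 chemokine genes were higher and 0 lower (3.33). Against these cells class II genes were above, with 6 of 8 at least 2-fold higher, 0 lower and a median of 1.18.

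How far TAM_C1q cells differed among themselves was read from the variance of the thinned counts over their mean, which is 1 for counting alone. Of 3136 genes with a mean of at least 0.1 UMI, 88 had a value of at least 2, and the median was 1.04. C1qa stood at 2.49, C1qc at 1.81, Fcrls at 2.07 and Ms4a7 at 2.47, above that median, while the marker Apoe was at 11.5. This measure rises with the mean at the same relative spread, so genes of unlike level cannot be ranked by it alone. Thinned cells that held Apoe had a mean of 35.5 of its UMIs, against 7.89 for Ms4a7. The 10 most variable genes were Ccl5 at 29.3, Spp1 at 24.3, H2-Aa at 18.2, Cxcl2 at 16.8, H2-Eb1 at 15.5, Ccl8 at 15.3, H2-Ab1 at 12.9, Apoe at 11.5, Cd74 at 11.3 and Ccl12 at 10.5. Il1b, at 10.4, was just outside. They comprise 4 class II genes, 4 chemokine genes, Apoe and Spp1. The 100 cells with the most UMIs of a gene held 72.8% of Ccl8, 52.3% of H2-Aa and 31.8% of Spp1 UMIs. They held 12.7% of Apoe, 12.1% of Ms4a7 and 8.92% of C1qa UMIs, so by this share Apoe was near Ms4a7.

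**Figure D3:**
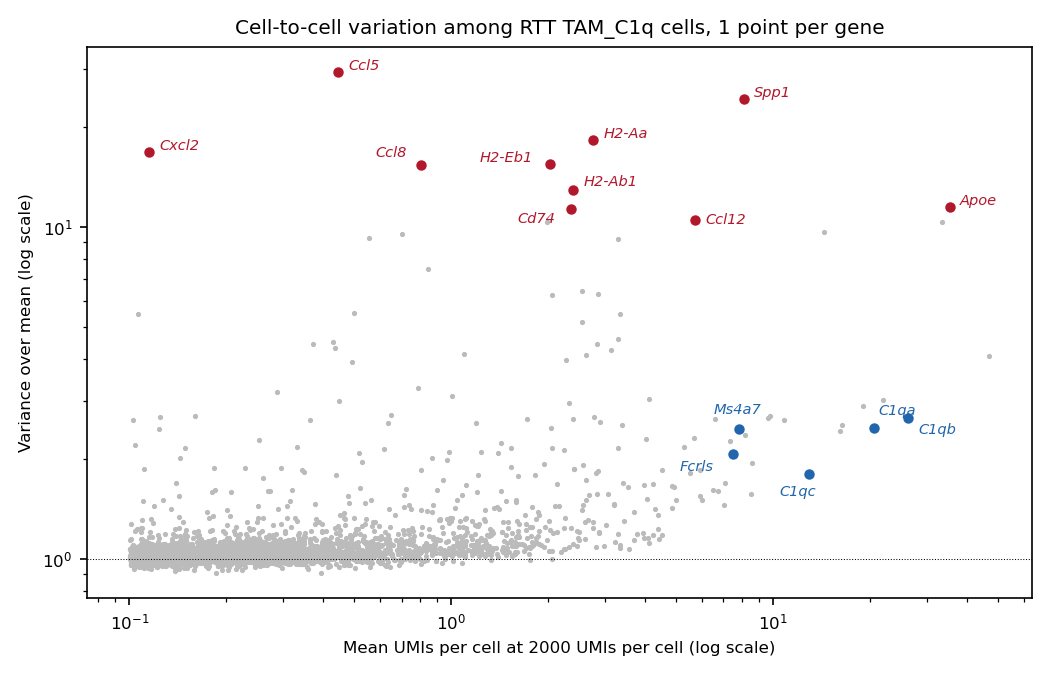
Variance over mean of UMIs per cell against the mean (both log axes), 1 point per gene, in 1995 RTT TAM_C1q cells thinned to 2000 UMIs; the dotted line at 1 is counting noise. The 10 most variable genes are red, from Ccl5 at 29.3 to Ccl12 at 10.5, and the C1q chains, Fcrls and Ms4a7 are blue, with C1qa at 2.49.

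Ccl5, a chemokine for T cells and monocytes that cytotoxic lymphocytes also express, came from few cells. There, 96 of the 1995 thinned cells (4.81%) held it, with a mean of 9.23 UMIs each. The 44 cells with 5 or more Ccl5 UMIs had Ccl5 at 8421 CPM and C1qa at 11998 CPM, against 10133 for C1qa in cells with 0. Fcrls was lower in them, at 2616 against 3837 CPM. Nkg7, a gene of cytotoxic granules, was at 2.52 CPM in these 44 cells and 0.116 CPM in cells with 0. Cd3e, of the T cell receptor complex, was at 0 against 0.174 CPM. These levels of Nkg7 and Cd3e rest on few UMIs, so no difference is read from them. Il1b was at 3162 CPM in them against 880 in cells without Ccl5.

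Across the 1995 cells, correlations between the 40 most variable genes were low for most of the 780 pairs, with a median of 0.0163, and 12 pairs reached 0.4. These are descriptions over cells of 1 library. Pairs of class II genes lay between 0.839 and 0.904. Ccl7 and Ccl2 followed at 0.617, then Ifitm3 and Ly6a at 0.437 and Ccl12 and Ccl7 at 0.433. Apoe and S100a6 had the lowest value, -0.312.

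The class II transcripts H2-Aa, H2-Ab1, H2-Eb1 and Cd74 were therefore summed in each thinned cell. Of 1995 TAM_C1q cells 842 (42.2%) held 0 of them, 874 held 1 to 19 and 279 (14.0%, 12.5 to 15.6%) held 20 or more, with a median of 1 and a highest value of 178. Of these cells, 74 lay between 15 and 24, around the limit of 20, so the group is a range of a continuous measure. NK cells, as background, had 18 of 41 at 0 and 1 at 20 or more. The share at 20 or more was 63.4% in TAM_Spp1, 26.9% in TAM_cycling, 98.3% in cDC2 and 5.04% in Ctsk_Macro cells.

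**Figure D4:**
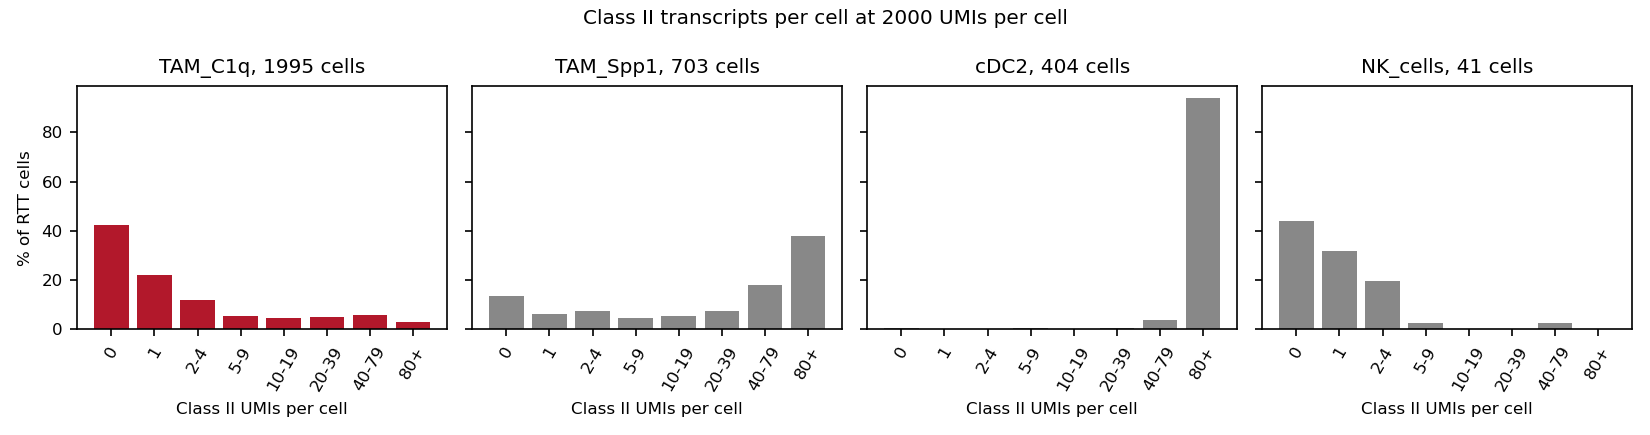
Percent of RTT cells by the summed UMIs of H2-Aa, H2-Ab1, H2-Eb1 and Cd74 per cell, after thinning to 2000 UMIs, in TAM_C1q (red) and in TAM_Spp1, cDC2 and NK cells (grey). In TAM_C1q 42.2% of cells are at 0 and 14.0% at 20 or more, while cDC2 cells are nearly all at 20 or more (98.3%).

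Cells rich in class II held less of the genes that lead the population. Of 5531 genes, 31 were at least 2-fold higher and 62 lower in the 279 cells than in the 842 cells at 0, with a median of -0.07. All 15 leading genes were lower, 11 of them 2-fold, with a median of -1.54. Igf1, the growth factor gene, was at -4.77, Cd163 at -3.53, Cbr2 at -2.53, Npl at -2.18, Folr2 at -2.01 and Gas6 at -1.84. Among the markers Pmp22 was at -2.83, Fcrls at -0.80, Ms4a7 at -0.32, Apoe at -0.23 and C1qa at -0.12. The genes above included the class II factor Ciita at 5.60 (56.0 against 1.15 CPM), the lectin gene Mgl2 at 3.44, the class II chaperone gene H2-DMb1 at 3.22, Cxcl9 at 2.61, the apoptotic cell receptor gene Axl at 1.87 and Ccr2 at 1.54. Class II UMIs chose these cells, so Ciita and H2-DMb1 move with a measure of the choice. The cells rich in class II were shallower, with a median of 7789 UMIs against 8886. A UMI of a dendritic marker was found in 6 of the 279 (2.15%) and in 13 of the 842 cells (1.54%).

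The NTT library gave 17 TAM_C1q cells, and their values rest on few UMIs. C1qa was at 7790 CPM in their sum, below NTT TAM_H2Ab1 at 9879 and TAM_cycling at 8495. Apoe at 12855, Fcrls at 1042 and Ms4a7 at 3090 CPM were the highest of the NTT populations, with NTT Macro next for Apoe at 10583 and for Fcrls at 176. Pmp22 had 0 UMIs in the 17 cells, and a floor of 3 UMIs there is 21.9 CPM. C1qa was present in 16 of 17 cells, above the RTT median in 3 and below the lowest 5% bound of RTT cells in 6. C1qb was above its RTT median in 0 of 17. Fcrls was present in 10 of 17, and 1 cell held 92 of the 143 UMIs (64.3%). The median Fcrls level per cell was 242 CPM in the NTT and 3826 CPM in the RTT library, and 2 of 17 NTT cells reached the lowest 5% bound of RTT cells, 1077 CPM. Fcrls was thus low in nearly all NTT cells of this name, while Apoe was above the RTT median in 8 of 17.

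**Figure D5:**
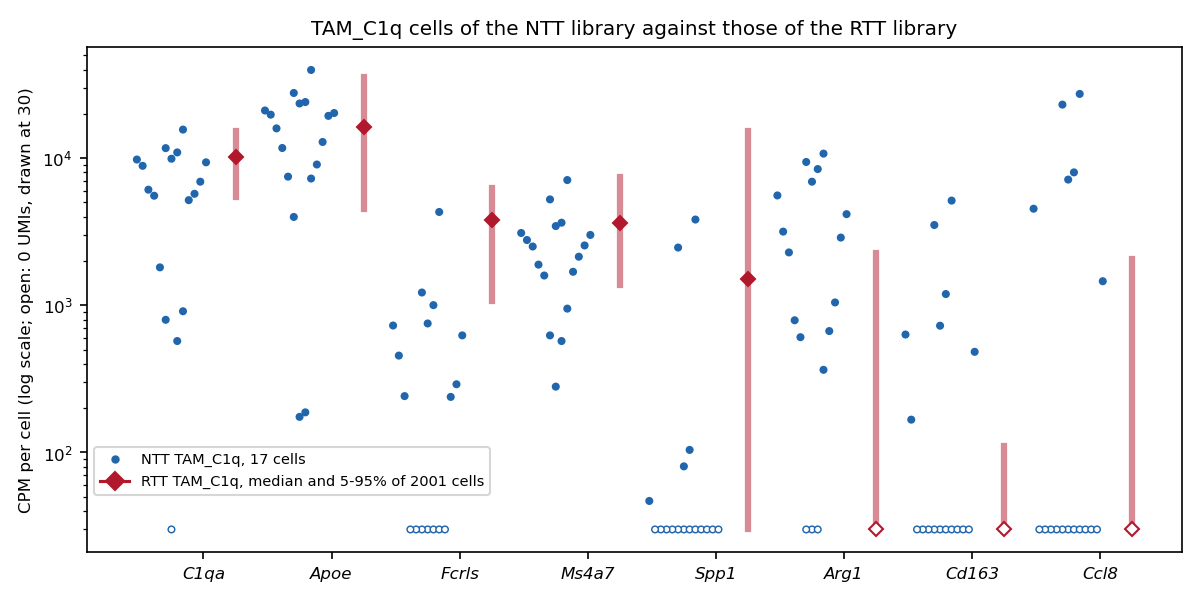
CPM per cell (log axis) of 8 genes in the 17 NTT TAM_C1q cells (blue points, open at 0 UMIs) beside the median (red diamond, open at 0) and the 5 to 95% range (red bar) of 2001 RTT TAM_C1q cells. Fcrls lies below the RTT median in all but 1 NTT cell, Spp1 is seen in 5 of 17, and Arg1 lies above the RTT median in 14.

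Of 3231 genes with a mean of at least 50 CPM, 204 were at least 2-fold higher in RTT TAM_C1q cells (6.31%) and 279 lower (8.64%), with a median of 0.02. TMM scaling, which moved all ratios up by 0.11, turned this split to 265 higher and 219 lower, so no excess in either direction is given. Spp1 had the highest ratio, at 3977 against 284 CPM (3.81, 3.36 to 4.30), and its 39 NTT UMIs came from 5 cells, 53.8% from 1 of them. Cd33, a sialic acid-binding receptor with 2 NTT UMIs, followed at 3.33. Next were Cd9 at 3.03 and Apex1 at 2.92, with 2 NTT UMIs each, and Ddx46 at 2.53 with 3. After thinning Cd33 and Cd9 had no NTT UMI left, so their values of 0.60 and 0.44 were lower bounds set by the floor.

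Higher in the NTT cells were Ppbp, a platelet chemokine, at 2.91 against 445 CPM (-7.26), Ccl24 at -6.68, Tmem26 at -6.44, Cd163 at 26.1 against 474 CPM (-4.18) and Plac8 at -4.16. Ppbp came from 3 cells, 59.0% from 1. The platelet and red cell list summed to the same 445 CPM there, since its other member in the matrix, Hbb-bs, had no UMI. That sum therefore restates Ppbp and adds nothing to it. The part of platelets in these values was not tested. Arg1 was at 442 against 2893 CPM (-2.71), and 14 of 17 NTT cells were above the RTT median and 9 above the RTT 95% bound. Pf4 was at 1634 against 6413 CPM (-1.97), with 13 of 17 cells above the median. Ccl8 was at -2.84, from 451 UMIs in 6 cells. These genes were thus shared by most NTT cells for Arg1 and Pf4, and by fewer for Ccl8 and Ppbp.

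Of 11 monocyte genes 9 were at least 2-fold lower in RTT TAM_C1q cells and 0 higher (median -1.87), with S100a6 at -2.86 and Ccr2 at -1.43. Of 11 interferon-stimulated genes 6 were lower and 0 higher (-1.14), among them Oasl2 at -1.86, and of 7 class II genes 3 were lower (-0.86), with H2-Aa at 1291 against 3498 CPM. Of 12 chemokine genes 2 were higher, Ccl5 at 2.09 and Ccl4 at 1.43, and 6 lower. Of 11 genes of resident macrophages 4 were higher, among them Fcrls at 1.86, Tmem119 at 1.75 and Tgfbr1 at 1.16, and Cd163 was lower. Without the deepest 5% of cells, 1 of them an NTT cell, Fcrls was at 3.13 and Tmem26 at -5.06. Over 17 lipid genes 1 was higher, Cd9, and 6 lower, with Fabp5 at -1.30 and Abca1 at -1.18, and 2 of 7 iron and heme genes were lower, Hmox1 at -1.74 and Slc48a1 at -1.42.

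In overall likeness the NTT TAM_C1q sum was closest to NTT Macro cells, with a correlation of 0.894 over 3231 genes, then to RTT TAM_C1q at 0.867 and RTT Infl_Mono at 0.850. These values share libraries and depth in part and are descriptions. Of the 15 genes that led the RTT population, NTT Macro cells were above NTT TAM_C1q cells for 12, and Abca1, at 619 CPM, was the single one highest in NTT TAM_C1q. Of the 5 markers, then, Apoe, Ms4a7 and Fcrls were highest in the NTT cells of this name, and C1qa and Pmp22 were not.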

How the data were processed

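CD45+ cells of 1 NTT and 1 RTT tumour were sequenced. The authors counted UMIs with Cell Ranger 6.1.1 against mm10 per the labels, kept cells with over 1000 genes and deposited raw UMI counts of 12584 genes, with a population name per cell given on clusters of a map shared with other data. Only genes shared with other experiments were kept by the authors, so some genes are not analysed here. Doublet removal is not given in the sources used here, and no doublet caller was run.

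From these counts, UMIs were summed per library and population and divided by the sum (CPM) in Python 3.11.15 (numpy 2.4.6, scipy 1.17.1, pandas 2.3.3, matplotlib 3.10.9). Ratios carry exact binomial, levels exact Poisson and shares Clopper-Pearson 95% intervals. A group with 0 UMIs was set to a floor of 3 UMIs. Genes needed a mean of 20 CPM, or 50 CPM against NTT, and 2-fold was counted as a difference. For the leading genes, 20 CPM was asked of RTT TAM_C1q cells alone. TMM (edgeR 4.0.16) and DESeq2 1.42.0 in R 4.3.3 gave scaling factors only. Scripts were tested on simulated data. Cells are not replicates, so no test was run.

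Members and gene lists were chosen with earlier results of these data known. Genes were named as the markers, the 10 largest ratios each way against other RTT cells and 5 in each other comparison, the 15 leading genes, the 10 most variable genes and, from each list, the members with the largest ratios or a role set out in the text. Genes named in the class II, Ccl5 and correlation accounts, other than those, were chosen after their values were seen. The number of columns from other samples was 0.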

Additional observations from a re-analysis of the deposited data

How the results depend on the processing

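The alternatives were a mean of per-cell CPM, cells of at least 1500 genes, thinning to 2000 UMIs, leaving out the deepest 5% of cells, TMM and DESeq2 scaling, no minimum level, and equal weight for each other RTT population of at least 50 cells. 2 further alternatives and the removal of shared barcodes were chosen after seeing the data. Of counts and shares, 59 values stayed within 1.5 times or within their interval and 21 moved. Of gene ratios 415 stayed, 190 moved and 1 turned, and of list medians 520 stayed and 292 moved. Against other RTT cells, the 83 higher genes became 132 after thinning, 125 under TMM scaling, 287 with no minimum level and 290 with equal weights, and the 287 lower genes became 2233 with no minimum and 451 with equal weights. Mcpt4 turned from -7.38 to 3.33 with equal weights, a set of populations that does not hold the 2 mast cells of the library. Against TAM_Spp1, no minimum gave 794 higher and 1011 lower genes, and against Ctsk_Macro 1678 and 2032. Against TAM_cycling, the 17 higher genes became 32 after thinning and 370 with no minimum, and the lower genes 1165 with no minimum. Against NTT TAM_C1q cells, 314 higher and 457 lower genes were counted from per-cell means, 425 and 601 after thinning and 857 and 1488 with no minimum. Without the shallowest NTT cell the counts were 202 and 267. The RTT share was 43.9% among cells of at least 1500 genes, 165 genes had a variance over mean of at least 2 at 4000 UMIs per cell, and with populations of at least 20 cells 3 of the 15 leading genes were highest in TAM_C1q. The named rankings moved too. After thinning, 9 of the 10 highest and 5 of the 10 lowest genes against other RTT cells were still among the 10. Against Ctsk_Macro, 0 of the 5 highest and 2 of the 5 lowest were. With per-cell means the same counts were 9, 3, 3 and 4. The cause of these moves was not tested, except that no minimum level adds genes with few UMIs. No paired analysis was possible because each group has 1 library. The NTT values rest on 17 cells, and without the deepest 5% of cells Fcrls moved from 1.86 to 3.13 against them.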
